A study of Homo sapiens with 9 samples.

Results

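The genes described here serve DNA replication and the supply of deoxynucleotides. The set holds 40 genes of the 30672 measured, taken by symbol from a deposited array table in which each of the 40 had a row of its own. They were followed in HCC4006, an established human lung adenocarcinoma line with a mutant epidermal growth factor receptor (EGFR), on 9 Illumina expression arrays in 3 groups of 3. The parental group is HCC4006 as labelled, with no selection named. The resistant group had 6 months of gefitinib at doses raised over time, gefitinib being an inhibitor of the EGFR kinase. The inhibitor group had the same 6 months of gefitinib together with SB431542, which blocks the kinase of the type I TGFβ receptor. All groups are 1 cell line. SB431542 was not given on its own, and a drug-free culture of 6 months is not among the groups, so time in culture and treatment cannot be told apart. The labels do not say whether replicates were separate cultures or whether drug was present at harvest, and p-values cover only array-to-array spread, which could be technical.

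Before S phase, the loaders CDC6 and CDT1 place the MCM2-7 helicase on replication origins, and MCM10, GINS and other factors then switch it on. At the fork, DNA polymerase alpha-primase lays down primers, the clamp loader RFC puts the sliding clamp PCNA around the DNA, and polymerases epsilon and delta copy the strands while replication protein A (RPA) covers single-stranded DNA. FEN1, LIG1 and RNase H2 process and join the lagging strand, and ribonucleotide reductase, thymidylate synthase and thymidine kinase provide precursors. Many of these genes are transcribed at the passage from G1 to S phase under E2F factors, and their transcript levels are widely used as markers of cycling cells.

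Array medians lay between 91.1 and 91.3, and a level of 90.3, the 95th percentile of 377 olfactory receptor rows, stood in for background. All 40 genes had a mean above it. Background remains in the intensities, so the changes of dim genes are understated; CLSPN, CDC6 and GINS1 had group means of 95.5 to 119, close to that level. Inhibitor replicate 2 stood apart, where 54 genes differed at least 2-fold from its fellow arrays, against 0 to 3 genes on the other 8, and log2 changes without it are given beside inhibitor calls. All 10 markers of epithelium and lung adenocarcinoma were above background, and their summed intensity was 19119 to 21813 in parental, 8808 to 8936 in resistant and 23995 to 29324 in inhibitor arrays. Single markers differed from that sum: 7 of the 10 fell and KRT8 and KRT18 rose in resistant cells, and the lung lineage genes NKX2-1 (409, 180 and 155 in parental, resistant and inhibitor means) and NAPSA (1002, 98.8 and 94.2) were not called between inhibitor and resistant cells. Of 8 fibroblast markers 5 were above background, while COL3A1, DCN and PDGFRB were not. Sums over all 8 were 693 to 703 in parental, 1855 to 1935 in resistant and 716 to 730 in inhibitor arrays. Among the 8 markers COL1A2 (91.4, 784 and 92.9 in parental, resistant and inhibitor means) had the largest rise in resistant cells. LUM (85.3, 222 and 90.1), FAP and THY1 were also called higher there, and COL1A1 (99.5, 107 and 111) was not. Leukocyte markers numbered 4 of 8 above background, and PTPRC, CD3E and ITGAM were among those that were not. Sums over all 8 leukocyte markers were 2067 to 2181, 2198 to 2306 and 1795 to 2259. CD14 was lower and CD68 and CSF1R were higher in resistant cells. Endothelial markers numbered 1 of 6 above background, with sums over all 6 of 530 to 535, 517 to 519 and 534 to 538. These sums include markers that were not above background, and so consist in part of background. The part of these marker shifts in the results below was not tested.

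In resistant cells, 9 of the 40 genes were lower than in parental cells, 2 were higher and 29 did not pass the test. The 9 were POLE2, MCM6, PRIM1, MCM10, RPA3, GINS2, PCNA, RFC5 and MCM3. The falls thus touched the helicase, its activators, the primase, the leading-strand polymerase, the clamp and its loader and the single-strand binding complex. The clamp and the primase each had a single gene among the 40, PCNA and PRIM1. In each of the other parts, some genes of the 40 did not pass. UHRF1 and TIPIN were the 2 that rose. Calls rest on limma, with Benjamini-Hochberg adjustment over all 30672 genes and a threshold of 0.05. The 9 lower genes are 22.5% of the set, against 10.2% of all genes called lower, and the 2 higher genes are 5.0%, also against 10.2% (20.5% in either direction). Among the 16240 genes above background, a fairer frame because all 40 are above it, 18.5% were lower and 18.5% higher. The 22.5% of the set called lower is near that share, so the list of parts touched is a description only. Arrays of the 2 groups did not overlap for 4 of the 40 genes upward and 11 downward, against 17.8% and 16.7% of all genes (34.5% in either direction). Only 52.9% of all genes had a mean above background, so that reference includes many dim genes. The share without overlap was not taken over genes above background, here or in the later comparisons. The median log2 change was -0.03 over the 40 genes and 0.00 over all genes. In bulk RNA, fewer cells in S phase and less transcript per cell cannot be told apart.

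**Figure D1:**
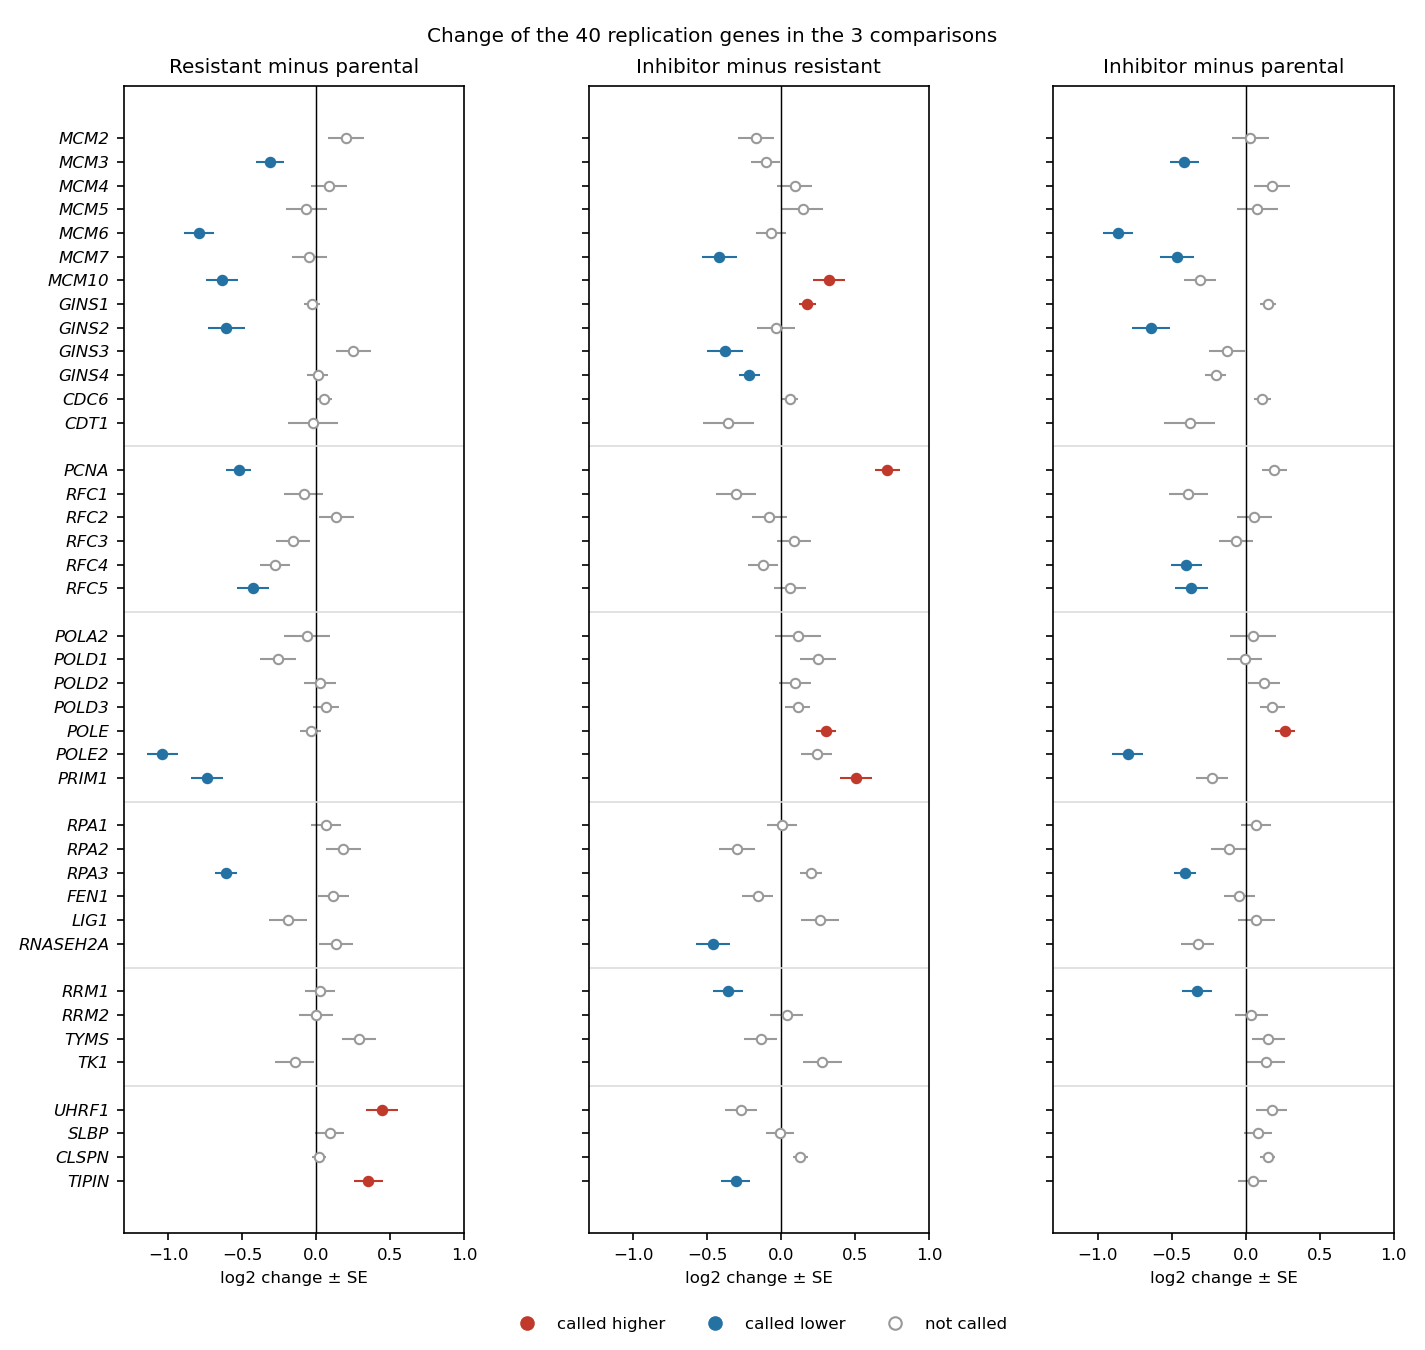
Log2 change of each of the 40 genes (points, with SE as bars) in the 3 comparisons, grouped from top to bottom as licensing and helicase, clamp and loader, polymerases and primase, single-strand binding and lagging-strand processing, deoxynucleotide synthesis, and fork protection, histone supply and maintenance methylation. In resistant against parental cells 9 filled blue points lie to the left of 0 and 2 red points to the right, while 29 open points did not pass.

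POLE2, which encodes the second subunit of DNA polymerase epsilon, had the largest fall of the 40. Its intensity was 883, 826 and 777 on the parental arrays, 389, 413 and 406 on the resistant arrays and 463, 476 and 488 on the inhibitor arrays. The 3 groups did not overlap, with every inhibitor array just above the resistant ones and far below the parental ones. The fall in resistant cells was 1.04 ± 0.11 on the log2 scale (mean ± SE, 2.06-fold, adjusted p = 3.34e-07, limma).

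MCM6 encodes a subunit of the MCM2-7 helicase, the motor that unwinds DNA at the fork. Its intensity was 3166, 3286 and 3094 in parental, 1913, 1761 and 1829 in resistant and 1889, 1508 and 1888 in inhibitor arrays. Parental arrays stood above all others, and resistant and inhibitor arrays overlapped. The fall in resistant cells was 0.80 ± 0.10 on the log2 scale (1.74-fold, adjusted p = 6.39e-06, limma).

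PRIM1, the catalytic subunit of primase, which makes the RNA primers of both strands, had intensities of 986, 991 and 905 in parental, 551, 604 and 574 in resistant and 801, 849 and 810 in inhibitor arrays. The inhibitor arrays lay between the other groups without overlap. PRIM1 fell in resistant cells by 0.74 ± 0.11 on the log2 scale (adjusted p = 3.1e-05, limma).

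MCM10, an activator of the helicase that is no part of the MCM2-7 ring, gave 993, 881 and 840 in parental, 585, 585 and 572 in resistant and 725, 717 and 741 in inhibitor arrays. Here too the inhibitor arrays were intermediate and no groups overlapped. For MCM10 this was a fall of 0.64 ± 0.11 on the log2 scale (adjusted p = 0.000187, limma).

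RPA3, the smallest subunit of replication protein A, gave 5708, 5371 and 5572 in parental, 3993, 3511 and 3420 in resistant and 4196, 4332 and 4021 in inhibitor arrays. Its parental values lie at about the 99th percentile of all values (5549), below the highest value of 11567. All parental arrays were above all others, and all inhibitor arrays above the resistant ones. The fall in resistant cells was 0.61 ± 0.08 on the log2 scale (adjusted p = 4.22e-06, limma).

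GINS2, a subunit of the GINS complex that joins CDC45 and MCM2-7 in the active helicase, gave 1707, 1629 and 1480 in parental, 1014, 1137 and 1010 in resistant and 1206, 854 and 1055 in inhibitor arrays. The parental arrays were the highest, and the resistant and inhibitor arrays overlapped. GINS2 was lower in resistant than in parental cells, and fell by 0.61 ± 0.13 on the log2 scale (adjusted p = 0.00126, limma).

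PCNA, the sliding clamp that tethers polymerases to DNA, gave 4512, 3964 and 4033 in parental, 2813, 2787 and 3093 in resistant and 4500, 5288 and 4535 in inhibitor arrays. Only the resistant arrays stood apart, below both other groups, which overlapped. The fall in resistant cells was 0.52 ± 0.09 on the log2 scale (adjusted p = 0.00011, limma). The falls of POLE2, MCM6, PRIM1, MCM10, RPA3, GINS2 and PCNA were called under each of the 17 alternative settings.

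**Figure D2:**
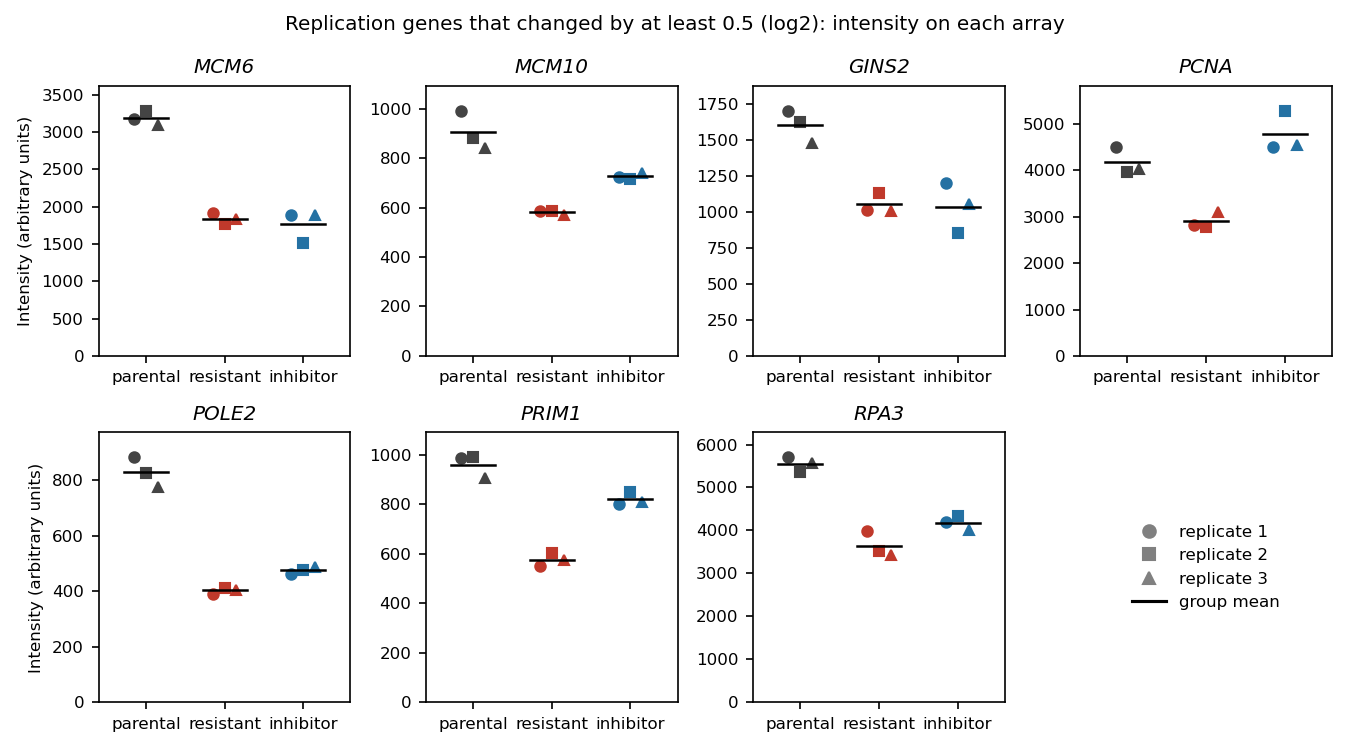
Intensity (linear scale from 0, arbitrary units) of the 7 genes that were called with a log2 change of at least 0.5 in any comparison, for each array, with symbols for the replicates and lines for group means. All 7 fell in resistant cells, and the inhibitor arrays of PCNA reach the parental level. Those of PRIM1, MCM10, RPA3 and POLE2 lie between the other groups, with POLE2 close to the resistant level. Those of MCM6 and GINS2 overlap the resistant arrays.

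Smaller falls were those of RFC5, a subunit of the clamp loader, from 1282 ± 66.0 to 954 ± 64.7 (SD, n = 3; log2 change -0.43 ± 0.11, adjusted p = 0.00686, limma), and MCM3, a helicase subunit, from 2673 ± 306 to 2146 ± 104 (log2 change -0.31 ± 0.10, adjusted p = 0.0262, limma). The RFC5 call held in all alternatives. The MCM3 call was lost without parental replicate 3 (adjusted p = 0.177), resistant replicate 2 (adjusted p = 0.117) or resistant replicate 3 (adjusted p = 0.0731; 17 alternatives gave 0.00726 to 0.177). With background subtracted MCM3 did not pass either (adjusted p = 0.0554, limma).

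UHRF1, which reads half-methylated DNA behind the fork and brings in the maintenance methyltransferase, rose in resistant cells. Its intensity was 963, 1173 and 1135 in parental, 1449, 1482 and 1509 in resistant and 1197, 1269 and 1213 in inhibitor arrays, so that the resistant arrays were highest, the inhibitor arrays came next and the parental arrays were lowest, with no overlap. The rise was 0.45 ± 0.11 on the log2 scale (adjusted p = 0.00447, limma), called in all alternatives. TIPIN, a partner of TIMELESS that steadies the fork, went from 243, 189 and 196 to 261, 273 and 262 (0.35 ± 0.10, adjusted p = 0.0129, limma). TIPIN no longer passed when parental replicate 2, parental replicate 3 or resistant replicate 2 was left out (adjusted p = 0.0947, 0.0741 and 0.0558; adjusted p between 0.00124 and 0.0947 over the 17 alternatives). It was also lost with background subtracted (adjusted p = 0.0810, limma). The count of 2 genes higher thus became 1 in each of those cases. It became 4 without inhibitor replicate 2, where the thymidylate synthase gene TYMS (adjusted p = 0.0158) and GINS3 (adjusted p = 0.0444) also passed.

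The 29 genes that did not pass had log2 changes from -0.28 (RFC4) to 0.29 (TYMS), and 24 of them lay within 0.2 of 0. Of the 4 deoxynucleotide genes, 0 were called in limma, and TYMS alone had an unadjusted p under 0.05. RRM2, the regulated small subunit of ribonucleotide reductase, was at 376 ± 50.8 in parental and 374 ± 11.5 in resistant cells (SD, n = 3), and its large subunit RRM1 at 2806 ± 203 and 2850 ± 130. TYMS, which makes thymidylate, was at 840 ± 32.4 and 1026 ± 35.5 (log2 change 0.29 ± 0.11, adjusted p = 0.0819, limma) with no overlap, and the salvage kinase gene TK1 was at 1078 ± 128 and 972 ± 75.8. The licensing loaders CDC6 and CDT1 had log2 changes of 0.05 and -0.02, and the lagging-strand genes FEN1, LIG1 and RNASEH2A of 0.12, -0.19 and 0.13.

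Subunits of the same complex therefore had unlike changes on the same arrays. To show this, the log2 intensity of the subunit that fell most was set against that of its partners on each array. Partners were taken from the main gene set only and averaged on the log2 scale, with the parental mean at 0. POLE3, POLE4, POLA1 and PRIM2, measured in a separate list, were thus left out. Of these, POLE3 was called higher in resistant cells (log2 change 0.39 ± 0.10, adjusted p = 0.0060, limma). POLE4, POLA1 and PRIM2 did not pass (-0.020, 0.003 and -0.009). The subunits were chosen for their fall, so these differences are a description without a test. MCM6 against MCM2, MCM3, MCM4, MCM5 and MCM7 was -0.87 to -0.67 on the resistant arrays and -0.10 to 0.14 on the parental arrays. POLE2 against POLE, the catalytic subunit of the same polymerase, was -1.08 to -0.91 against -0.19 to 0.17. POLE itself was at 129 ± 8.15 in parental and 125 ± 3.88 in resistant cells (SD, n = 3), nearer to background than POLE2, which can hide part of a change.

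RPA3 against RPA1 and RPA2, the large and middle subunits, was -0.82 to -0.60 on the resistant and -0.10 to 0.05 on the parental arrays. GINS2 against GINS1, GINS3 and GINS4 was -0.74 to -0.60 and -0.07 to 0.08. Of these partners, GINS1 (108 and 106 in parental and resistant means) and GINS4 (139 and 140) were near background, which can hide part of a change. PRIM1 against POLA2, the accessory subunit of polymerase alpha, was -0.81 to -0.58 and -0.19 to 0.11. RFC5 against RFC1 to RFC4 had the narrowest gap, with -0.44 to -0.22 and -0.10 to 0.08. In all 6 complexes every resistant array lay below every parental array.

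**Figure D3:**
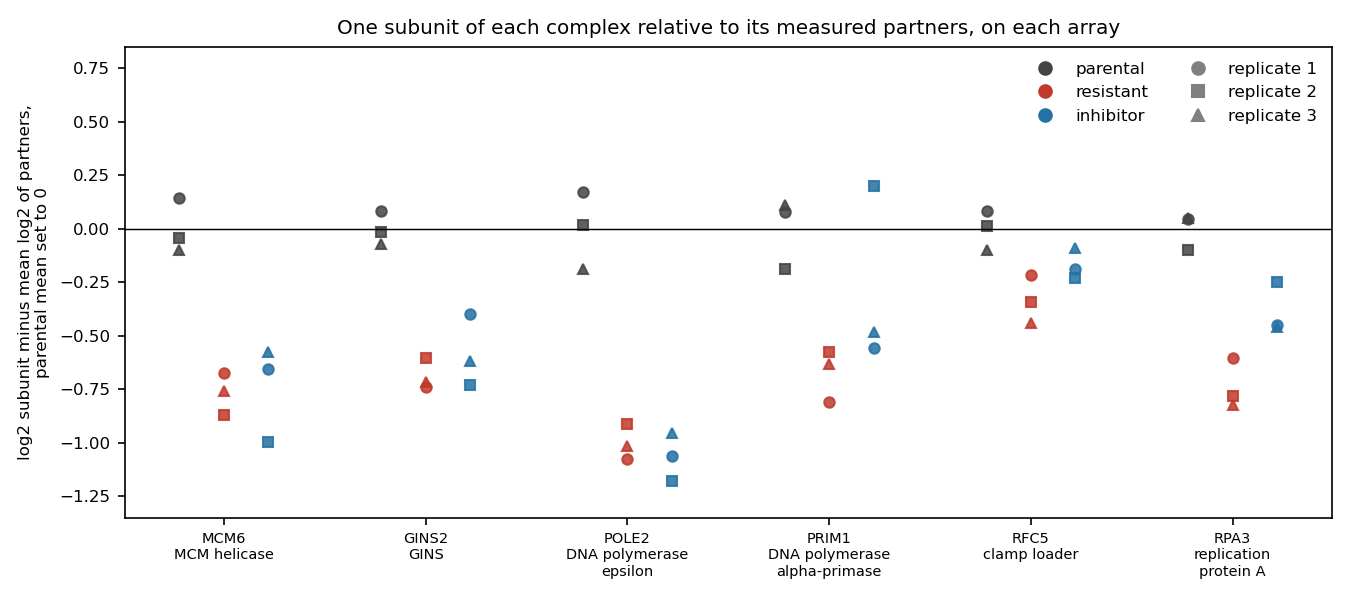
Log2 intensity of 1 subunit minus the mean log2 intensity of its partners in the main gene set, for 6 replication complexes. Each array is shown (colour for group, symbol for replicate), with the parental mean of each complex set to 0. POLE3, POLE4, POLA1 and PRIM2 are not among the partners. All resistant arrays lie below all parental arrays, and for DNA polymerase alpha-primase inhibitor replicate 2 lies at 0.20, away from the other inhibitor arrays.

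Promoter sequence of these genes was read from RefSeq (GRCh38.p14), in windows from 250 bases before to 50 after the annotated start; 34 of the 40 genes had such a window here. An E2F site was taken as TTTCCCGC, TTTCGCGC, TTTGCCGC or TTTGGCGC on either strand, with overlapping matches joined. It was present in 18 of the 34 windows (52.9%) and in 3.33% of all 27305 windows. Among the genes lower in resistant cells 5 of 8 windows held it, and among those not called 12 of 24. The word thus stood before genes that fell and before genes that did not. A CCAAT box (CCAAT, either strand) was in 7 of 8 and 11 of 24, against 35.7% of all windows. The CHR element of late cell cycle genes (TTTGAA or TTTCGAA, either strand) was in 1 of the 34, RRM1, against 15.9% of all windows. These matches are descriptions of letters and not of binding.

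The stretch from 170 bases before the start to 10 bases from it is shown for POLE2 and POLE, which encode subunits of 1 polymerase and differed in their change, for MCM6, GINS2 and PCNA, which fell, and for PRIM1, which fell and has no E2F word in its window, though it has a CCAAT box. Each reads 5′ to 3′ along the gene, and capitals mark the E2F words. All lie on the minus strand, at chr14:49688205-49688384 (POLE2), chr12:132687333-132687512 (POLE), chr2:135876434-135876613 (MCM6), chr16:85688945-85689124 (GINS2), chr20:5126613-5126792 (PCNA) and chr12:56752314-56752493 (PRIM1).
POLE2: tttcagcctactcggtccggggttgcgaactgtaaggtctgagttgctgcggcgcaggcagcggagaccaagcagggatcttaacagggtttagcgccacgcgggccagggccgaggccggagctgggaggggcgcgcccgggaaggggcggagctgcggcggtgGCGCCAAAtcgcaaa
POLE: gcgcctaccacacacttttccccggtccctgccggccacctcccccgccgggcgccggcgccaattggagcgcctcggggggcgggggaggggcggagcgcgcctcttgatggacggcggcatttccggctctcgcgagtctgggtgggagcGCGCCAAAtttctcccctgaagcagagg
MCM6: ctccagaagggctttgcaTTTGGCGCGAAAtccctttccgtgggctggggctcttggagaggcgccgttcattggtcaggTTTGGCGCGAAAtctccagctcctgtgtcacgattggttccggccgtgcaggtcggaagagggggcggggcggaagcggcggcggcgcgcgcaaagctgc
GINS2: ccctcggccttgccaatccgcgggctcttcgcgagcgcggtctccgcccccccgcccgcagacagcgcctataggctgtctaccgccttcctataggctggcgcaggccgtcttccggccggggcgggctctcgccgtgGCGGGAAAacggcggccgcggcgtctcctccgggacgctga
PCNA: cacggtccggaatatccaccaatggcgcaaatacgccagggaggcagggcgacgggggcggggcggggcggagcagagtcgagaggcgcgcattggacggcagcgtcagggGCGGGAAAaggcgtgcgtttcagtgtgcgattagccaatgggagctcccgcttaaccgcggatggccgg
PRIM1: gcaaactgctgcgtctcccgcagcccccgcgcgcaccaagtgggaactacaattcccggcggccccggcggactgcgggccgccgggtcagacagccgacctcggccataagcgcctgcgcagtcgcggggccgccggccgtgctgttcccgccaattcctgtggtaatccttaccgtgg
POLE2 and POLE carry the same 8-letter word on the reverse strand, beginning 5 and 18 bases before the start, yet the intensity of the former fell and that of the latter did not pass the test. MCM6 has 2 joined stretches of 12 bases each, beginning 152 and 90 bases before the start. GINS2 and PCNA share another word of the set, beginning 31 and 59 bases before the start.

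The second comparison asked how cells grown with gefitinib and SB431542 differed from resistant cells. Of the 40 genes, 5 were higher in inhibitor cells (PCNA, PRIM1, MCM10, POLE and GINS1), 6 were lower (RNASEH2A, MCM7, GINS3, RRM1, TIPIN and GINS4) and 29 did not pass. Those shares, 12.5% and 15%, compare with the 8.68% higher and 8.81% lower of all genes (17.5% in either direction) and the 15.7% and 16.1% of genes above background. Arrays did not overlap for 9 of the 40 upward and 11 downward, against 14.7% and 15.3% of all genes, dim ones included (30.1% in either direction). PCNA rose by 0.72 ± 0.09 on the log2 scale (adjusted p = 3.72e-06, limma), and by 0.64 without inhibitor replicate 2. PRIM1 rose by 0.51 ± 0.11 (adjusted p = 0.00188, limma), and by 0.48 without that array.

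POLE went from 128, 121 and 128 on the resistant arrays to 151, 168 and 147 on the inhibitor arrays, above its parental values of 122, 127 and 138. The groups did not overlap, and the rise was 0.31 ± 0.07 on the log2 scale (adjusted p = 0.00333, limma). RNASEH2A, the catalytic subunit of the enzyme that removes RNA from DNA, fell from 408, 402 and 364 to 300, 260 and 293 (log2 change -0.46 ± 0.11, adjusted p = 0.0076, limma), with no overlap. Without inhibitor replicate 2 the changes were 0.25 for POLE and -0.40 for RNASEH2A. The calls of PCNA, PRIM1 and POLE held under all 17 alternatives, and that of RNASEH2A under all but the subtraction of background (adjusted p = 0.0588).

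The other calls of this comparison each rested on a narrow margin. MCM7, a helicase subunit, was at 3652, 3612 and 3462 in resistant and at 3071, 2066 and 3021 in inhibitor arrays, of which replicate 2 was the lowest. Its change was -0.42 ± 0.12 (adjusted p = 0.0177, limma) and -0.23 (adjusted p = 0.0441) without inhibitor replicate 2, and the call was lost without resistant replicate 1 or 2 (adjusted p = 0.0725 and 0.0648; 17 alternatives gave 0.00675 to 0.208). The MCM7 call was also lost without the intensity trend and with background subtracted (adjusted p = 0.0647 and 0.208, limma).

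RRM1 was at 2988, 2832 and 2731 in resistant and at 2193, 2566 and 1961 in inhibitor arrays. The groups did not overlap, and inhibitor replicate 2 was the closest to the resistant arrays. Its change was -0.36 ± 0.10 (adjusted p = 0.0193, limma) and -0.46 (adjusted p = 0.000487) without that array. The call was lost without resistant replicate 1 or 2 or inhibitor replicate 1 or 3 (17 alternatives gave 0.000487 to 0.107). Background subtraction also removed it (adjusted p = 0.107, limma).

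GINS3 changed by -0.38 ± 0.12, TIPIN by -0.31 ± 0.10 and GINS4 by -0.21 ± 0.07 (adjusted p = 0.0336, 0.0368 and 0.0465, limma). None of the 3 was called without inhibitor replicate 2 (adjusted p = 0.0953, 0.0582 and 0.141) or with background subtracted (adjusted p = 0.153, 0.156 and 0.164, limma). GINS3 did not pass in the fit of the 2 groups alone either (adjusted p = 0.0566, limma). The GINS3 call was also lost on dropping a resistant array (any of the 3) or inhibitor replicate 1, that of TIPIN on dropping a resistant array (any of the 3) or inhibitor replicate 3, and that of GINS4, lost under 13 of the 17 alternatives, without parental replicate 1 or 3, resistant replicate 2 or 3 or inhibitor replicate 1 or 3. MCM10 rose by 0.33 ± 0.11 (adjusted p = 0.0454, limma), and by 0.34 without inhibitor replicate 2. The MCM10 call was lost in the fit of the 2 groups alone and with the replicate block (adjusted p = 0.0547 and 0.0819, limma). It was also lost on dropping a resistant array (any of the 3), parental replicate 2 or 3 or inhibitor replicate 1 or 3 (17 alternatives gave 0.00337 to 0.132). GINS1, dim at 106 ± 6.98 and 119 ± 2.22 (SD, n = 3), rose by 0.18 ± 0.06 (adjusted p = 0.0291, limma), and by 0.18 also without inhibitor replicate 2. The GINS1 call was lost without resistant replicate 1 or 3 or inhibitor replicate 1 (17 alternatives gave 0.00788 to 0.142). Background subtraction and the fit of the 2 groups alone also removed the GINS1 call (adjusted p = 0.0877 and 0.0604, limma).

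Counts in this comparison moved accordingly. Without inhibitor replicate 2 the 6 lower genes became 4, namely RNASEH2A, MCM7, RRM1 and, newly, UHRF1 (log2 change -0.30, adjusted p = 0.0472, limma). The count became 2, 1 and 3 without resistant replicate 1, 2 and 3, and 3 without inhibitor replicate 1 or 3. With background subtracted 5 were higher and 0 lower in limma (7 lower at an unadjusted p under 0.05). The 5 higher genes became 3 without resistant replicate 3 and 6 without inhibitor replicate 2, where POLA2 also passed (log2 change 0.33, adjusted p = 0.0493).

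Against parental cells, inhibitor cells had 9 of the 40 genes lower and 1 higher, and 30 did not pass. The share of lower genes was 22.5%, against 7.79% of all genes and 14.2% of those above background, and that of higher genes 2.5%, against 7.13% and 13.0% (14.9% of all genes in either direction). Arrays did not overlap for 6 of the 40 upward and 13 downward, against 14.0% and 13.7% of all genes, dim ones included (27.7% in either direction). Without inhibitor replicate 2, 10 were lower and 1 higher. MCM6 was lower by 0.86 ± 0.10 on the log2 scale (adjusted p = 4.23e-06), POLE2 by 0.80 ± 0.11 (adjusted p = 1.87e-05), GINS2 by 0.64 ± 0.13 (adjusted p = 0.00118), MCM3 by 0.42 ± 0.10 (adjusted p = 0.00494) and RPA3 by 0.41 ± 0.08 (adjusted p = 0.000649), all in limma and all called under the 17 alternatives. Without inhibitor replicate 2 these changes were -0.75, -0.80, -0.51, -0.41 and -0.43.

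The other calls against parental cells were those of MCM7 (-0.46), RFC4 (-0.40), RFC5 (-0.37), RRM1 (-0.33) and, upward, POLE (0.27), with adjusted p-values of 0.0095, 0.0109, 0.0264, 0.0328 and 0.0106 (limma). RFC4 was at 1612, 1389 and 1526 in parental and 1171, 1157 and 1096 in inhibitor arrays, with its resistant arrays in between at 1192, 1270 and 1267. Without inhibitor replicate 2 the changes were -0.28, -0.41, -0.31, -0.43 and 0.21 in that order. The MCM7 call was lost without parental replicate 2 and with background subtracted (adjusted p = 0.0582 and 0.158, limma). The RFC4 and POLE calls were lost without parental replicate 1, and that of POLE also with background subtracted (adjusted p = 0.0672, limma). RFC5 was not called without parental replicate 1 or 2, in the fit of the 2 groups alone or with the replicate block (adjusted p = 0.0501 to 0.103, limma). The RRM1 call was lost under 8 of the 17 alternatives (adjusted p up to 0.162, limma). These were background subtraction, the fit of the 2 groups alone, and dropping parental replicate 2 or 3, resistant replicate 1 or 2 or inhibitor replicate 1 or 3. The 1 higher gene became 0 without parental replicate 1 (4 at an unadjusted p under 0.05) and 2 without parental replicate 3 or resistant replicate 2.

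The comparisons share arrays, so their values are set side by side without a test. Of the 9 genes that fell in resistant cells, MCM3, MCM6, RFC5, POLE2, GINS2 and RPA3 were called lower than parental with the inhibitor too and did not pass against resistant cells. MCM10, PCNA and PRIM1 were called higher with the inhibitor than in resistant cells and did not pass against parental cells. This division was not firm. MCM10 passed as lower than parental under 4 of the 17 alternatives (adjusted p from 0.00495) and PRIM1 under 2 (adjusted p = 0.0140 without the intensity trend and 0.0439 with background subtracted). POLE2 passed as higher than resistant under the same 2 (adjusted p = 0.00931 and 0.0230), and RPA3 under 4 (adjusted p from 0.0313 to 0.0487). Against resistant cells the inhibitor change was -0.07 ± 0.10 for MCM6, -0.03 ± 0.13 for GINS2, 0.24 ± 0.11 for POLE2 and 0.20 ± 0.08 for RPA3 (adjusted p = 0.766, 0.916, 0.145 and 0.0752, limma). Without inhibitor replicate 2 the changes of MCM6 and GINS2 were 0.04 and 0.10. Against parental cells the change was -0.31 ± 0.11 for MCM10, which passed without inhibitor replicate 2 (adjusted p = 0.0487), -0.23 ± 0.11 for PRIM1 and 0.19 ± 0.09 for PCNA (adjusted p = 0.065, 0.198 and 0.162, limma). Over all 30672 genes, 4.71% were lower in resistant than in parental cells and higher with the inhibitor than in resistant cells. A share of 5.04% was lower than parental in both groups. Each of these shares uses 2 comparisons, whatever the result of the third, and includes genes that were not above background.

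Other genes of the pathway were read from lists kept apart from the 40. Of 37 other replication genes, 7 fell and 4 rose in resistant cells (8 and 7 without inhibitor replicate 2). Those are 18.9% and 10.8% of the list, against 18.5% lower and 18.5% higher of genes above background. WDHD1, which couples the helicase to polymerase alpha, fell from 343 ± 22.2 to 181 ± 9.90 (SD, n = 3; log2 change -0.93 ± 0.09, adjusted p = 1.75e-07, limma). DSCC1, part of an alternative clamp loader, fell by 0.70 ± 0.10, and TOP1, the topoisomerase that relaxes DNA ahead of the fork, by 0.60 ± 0.09. The origin recognition gene ORC5 rose by 0.54 ± 0.12 (adjusted p = 0.00191, limma). With the inhibitor against resistant cells 4 rose and 4 fell (10.8% each), against 15.7% higher and 16.1% lower of genes above background. The largest change was that of the polymerase epsilon subunit gene POLE3 (-0.76 ± 0.10, and -0.63 without inhibitor replicate 2). The counts became 1 and 2, 2 and 2, and 2 and 3 without resistant replicate 1, 2 and 3. Against parental cells 8 were lower (21.6%) and 2 higher (5.4%), against 14.2% and 13.0% of genes above background. WDHD1 was at -0.78 ± 0.09 (-0.84 without inhibitor replicate 2). The 8 became 4 without parental replicate 2. The 2 became 4 without inhibitor replicate 3 and 1 without any other array but inhibitor replicate 1.

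Of 12 other deoxynucleotide genes, 3 fell (25%) and 2 rose (16.7%) in resistant cells, where 18.5% of genes above background fell and 18.5% rose. DCTPP1, which breaks down modified and excess dCTP, fell by 0.51 ± 0.11, and DUT, which removes dUTP, by 0.39 ± 0.11 (adjusted p = 0.00228 and 0.0164, limma). DUT did not pass on dropping parental replicate 1 or 2, or resistant replicate 3 (17 alternatives gave 0.00211 to 0.102). The counts without single arrays ran from 0 to 2 higher and 1 to 5 lower in resistant cells, with 1 lower without resistant replicate 3 and 5 without inhibitor replicate 2, with 0 higher without parental replicate 1 or resistant replicate 2, and with 1 higher without parental replicate 2 or resistant replicate 1 or 3.

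Among 22 genes of the E2F pathway and S phase entry, 8 rose (36.4%) and 5 fell (22.7%) in resistant cells, against the same 18.5% each way, and the 8 became 5 on dropping parental replicate 2 or 3, and likewise resistant replicate 1 or 2. The activator gene E2F2 fell from 660 ± 40.9 to 261 ± 9.67 (SD, n = 3; log2 change -1.33 ± 0.14, adjusted p = 5.58e-07, limma) and was at 243 ± 58.4 in inhibitor cells (277 without replicate 2). CCNE2, the cyclin E2 gene that drives S phase entry, fell by 1.25 ± 0.11 and rose by 0.70 ± 0.11 with the inhibitor against resistant cells (adjusted p = 2.84e-08 and 7.48e-05, limma). The CDK inhibitor gene CDKN1A fell by 0.93 ± 0.14 and rose by 1.24 ± 0.14, with rises of 0.67 for CCNE2 and 1.43 for CDKN1A without inhibitor replicate 2. The repressor gene E2F7 rose by 0.74 ± 0.10 in resistant cells. The S and G2 cyclin gene CCNA2 rose by 0.54 ± 0.13 (adjusted p = 0.00392, limma). E2F1, dim at 128 ± 7.63 and 148 ± 7.83 (SD, n = 3), rose by 0.20 ± 0.07 (adjusted p = 0.0388, limma), which did not pass on dropping parental replicate 2 or 3, or resistant replicate 1 or 2 (17 alternatives gave 0.0169 to 0.208). E2F1 also did not pass with background subtracted or with loess scaling (adjusted p = 0.103 and 0.0892, limma).

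For 28 mitosis genes, 16 (57.1%) were higher in resistant cells and 0 lower (0 at an unadjusted p under 0.05, limma). Of genes above background, 18.5% were higher and 18.5% lower. The median log2 change of the mitosis genes was 0.45, beside the -0.03 of the 40 replication genes. With the inhibitor against resistant cells, 14 of the 28 were lower and 0 higher (0 at an unadjusted p under 0.05, limma), with a median of -0.36 beside 0.02 (14 and 0, with a median of -0.32 beside 0.03, without inhibitor replicate 2). The centromere protein gene CENPF rose by 1.28 and fell by 1.07 in these comparisons (1.02 without inhibitor replicate 2). Against parental cells, 5 of the 28 were higher (17.9%) and 3 lower (10.7%) with the inhibitor (7 and 3 without inhibitor replicate 2). Of genes above background, 13.0% were higher and 14.2% lower there. The difference between the lists was not tested.

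**Figure D4:**
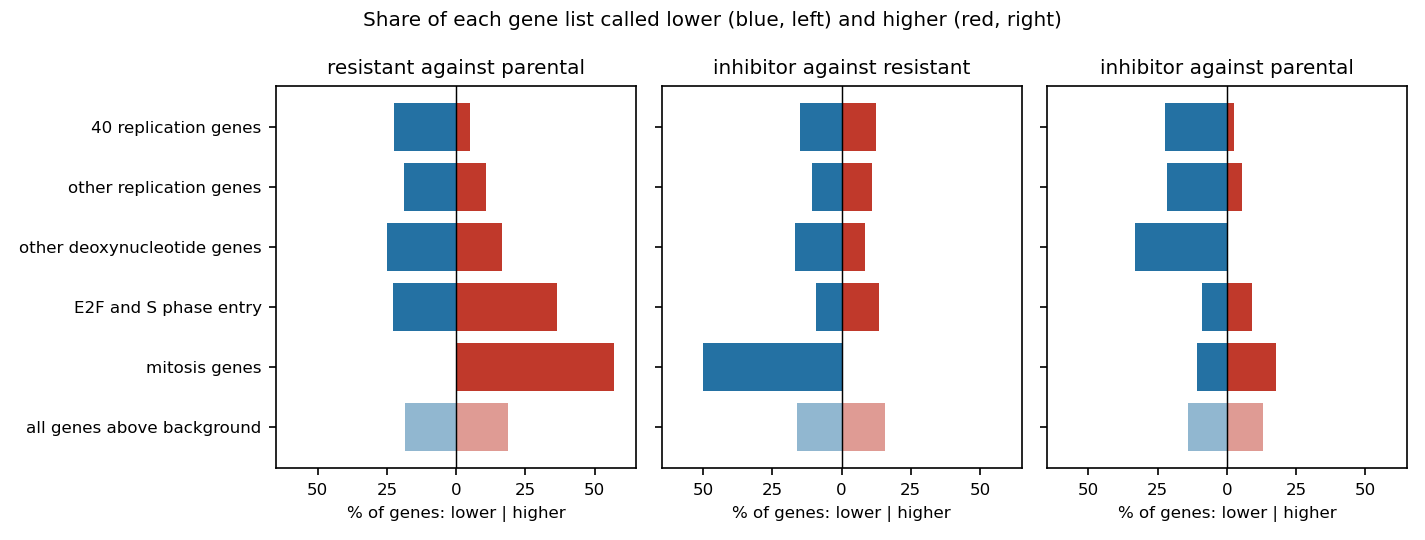
Percentage of each gene list called lower (blue, to the left of 0) and higher (red, to the right) in the 3 comparisons, with all genes above background in pale colours for reference. In resistant against parental cells the 40 replication genes have 22.5% lower and 5.0% higher, while 16 of the 28 mitosis genes are higher and 0 lower.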

How the data were processed

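Per the labels' protocols, RNA was extracted with Trizol, cleaned with DNase I treatment and made into biotin-labelled cRNA for Illumina arrays. The authors deposited 1 linear intensity per gene symbol and array. Ranked intensities matched across arrays to within 0.0178 on the log2 scale, so the deposited intensities had already been brought to 1 distribution; the lowest was 72.7, so background had not been subtracted. The array software is not given in the sources here, nor is the way probes were merged into genes. Of 34687 rows, 3270 naming only a UniGene cluster were left out, 3303 older names and 2669 gene numbers were updated through RefSeq (GRCh38.p14), and the brightest row of each gene was kept. RRM2 was the 1 gene of the 40 with a second row under an older name.

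From the deposited values, log2 intensities of all 9 arrays entered a single limma fit (version 3.58.1, R 4.3.3) with group means and an intensity trend, and checked on simulated data. The threshold was an adjusted p of 0.05. Named genes are those of the 40 called with a log2 change of at least 0.5, with values for each array, the other called genes, and up to 4 called genes with the largest change of each other list, with E2F1, CCNE2, CCNA2 and CDKN1A. Some genes of these lists are not reported here by name. The genes, lists and tests were chosen with earlier results of these data known. The 17 alternatives were a prior without trend, dim genes left out, background subtracted (floor of 16), loess scaling, only the groups compared, array weights, the mean of all rows of a gene, the replicate number as a block, and leaving out each array. Array number limits the precision. Figures were drawn with matplotlib 3.10.9.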

Additional observations from a re-analysis of the deposited data

How the results depend on the processing

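Same-numbered arrays did not deviate together (correlations of -0.20 to 0.03). Deviations were taken from means of 3 arrays, and inhibitor replicate 2 stood apart. The correlations therefore cannot show whether the replicate numbers pair the arrays, and the labels do not say. With the replicate number as a block, 2 of the 40 genes were higher and 9 lower in resistant cells, 4 and 5 with the inhibitor against resistant cells, and 1 and 8 against parental cells. The calls lost under it included MCM10 and GINS4 against resistant cells (adjusted p = 0.0819 and 0.0678) and RFC5 against parental cells (adjusted p = 0.0501). Over all genes the block gave 2944 higher and 2974 lower, 2461 and 2468, and 1997 and 2214. Leaving out 1 array gave 1 to 4 of the 40 higher and 8 to 11 lower in resistant cells, 3 to 6 higher and 1 to 6 lower with the inhibitor against resistant cells, and 0 to 2 higher and 6 to 10 lower against parental cells. With background subtracted, 1 of the 40 was higher in resistant cells, 0 were lower with the inhibitor against resistant cells and 0 higher against parental cells (7 and 3 at an unadjusted p under 0.05, limma), and the counts over all genes were 1757 lower against resistant and 1413 higher against parental cells. On the 6 arrays of the groups compared, 3 of the 40 were higher with the inhibitor against resistant cells; with dim genes left out, 3 were higher against parental cells. Against resistant cells, leaving out 1 array gave changes of -0.12 to 0.043 for MCM6 (highest without inhibitor replicate 2) and of -0.15 to 0.10 for GINS2 (0.02 without resistant replicate 2, 0.10 without inhibitor replicate 2), and array weights gave 0.060 for GINS2, none called. The causes were not tested. Intensities near background limit what can be said of CLSPN, CDC6, GINS1, GINS4, E2F1 and POLE.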

Other observations

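On inhibitor replicate 2, MCM5, POLA2 and CDT1 differed at least 1.5-fold from replicates 1 and 3 averaged, while no gene of the 40 did so on any of the other 8 arrays. CDT1 was at 243 on it against 449 and 423, POLA2 at 429 against 685 and 657, and MCM5 at 546 against 365 and 350. Over all 30672 genes, 714 (2.33%) were that far off on this array, against 2 to 89 on the others. The 40 genes moved in both directions there, with MCM7 and GINS2 lowest of their group and LIG1, POLD1 and TK1 highest of theirs.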
